A study of Mus musculus with 24 samples.

Results

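The immunity-related GTPases (IRGs) are interferon-inducible GTP-binding proteins of the mouse. The 8 family members described here, Irgm1, Irgm2, Igtp, Iigp1, Tgtp1, Tgtp2, Ifi47 and Gm12250, were chosen by name, as the classical members of the family, out of 37315 genes in the expression table. They were followed by RNA-seq through the reprogramming of neural precursor cells (NPCs) to induced pluripotent stem cells (iPSCs), with and without interferon gamma (IFNγ), to ask how an inflammatory cytokine changes gene expression during reprogramming. All cells came from 1 female mouse embryonic stem cell (ESC) line, a hybrid of M. musculus and M. castaneus with a GFP reporter on the M. musculus X chromosome (X-GFP), a truncated Tsix gene, an RFP reporter driven by a Nanog promoter fragment and a doxycycline-inducible cassette for c-Myc, Klf4, Oct4 and Sox2, so that every group carries these alleles. The 12 populations, with 2 libraries each, were the ESCs, the NPCs made from them, and cells reprogrammed with or without IFNγ, collected at day 2, at day 5 and at day 7, the last split by sorting into X-GFP negative, medium and high cells. Reprogramming cells of both arms received doxycycline on irradiated male fibroblast feeders, and the IFNγ arm also received 10 ng/ml IFNγ from day 0 to day 5, so that the day 7 cells were collected after the cytokine had been removed. Day 2 cells were sorted as negative for the dye that stained the feeders, and day 5 and day 7 cells were sorted for the surface antigen SSEA1. The labels number the 2 libraries of a population as replicates and the study's methods call them independent, without saying whether they came from separate cultures, so the p-values measure the spread between these libraries.

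In textbook accounts IFNγ binds its receptor, the kinases JAK1 and JAK2 become active, and the signal reaches gamma-activated sites (GAS) in promoters, among them that of Irf1, whose product binds interferon-stimulated response elements (ISRE). The IRG proteins made in response gather on the vacuoles in which bacteria and parasites live and break them. Their regulators, Irgm1, Irgm2 and Igtp (also called Irgm3), sit on the cell's own membranes and keep the effectors Iigp1 (Irga6), Tgtp1 and Tgtp2 (Irgb6), Ifi47 (Irgd) and Gm12250 (Irgb10) inactive there.

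The libraries held between 24746109 and 37056508 reads on genes. Values are the authors' normalized counts, and a value of about 1 corresponds to 1 read. The labels held against marker genes, since Nanog, a pluripotency factor, averaged 25331 in ESCs and 8.77 in NPCs, and Fabp7, a neural precursor marker, averaged 13240 in NPCs and 1.95 in ESCs. Genes of the Y chromosome, which the female line lacks and the male feeders carry, summed to between 0 and 1.94 in ESC and NPC libraries, between 125 and 253 at day 2 in both arms, and between 1.03 and 12.5 at days 5 and 7. Because these are bulk libraries, fewer cells of a type and less RNA per cell cannot be told apart.

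The sequences around the motif matches are shown because they carry the feature that most of these genes share outside the measurements. In the RefSeq promoters (GRCm38.p6, from 250 bases before to 50 bases after each start) 7 of the 8 members had an entry. Both strands were searched for the ISRE core, which is GAAA, any 2 bases and GAAA, and for the GAS motif, which is TTC, any 3 bases and GAA and reads the same on both strands. Capitals mark the matches, and each line runs 5′ to 3′ in the direction of transcription.
Irgm1, chr11:48871428-48871457, minus strand: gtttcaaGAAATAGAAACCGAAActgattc
Irgm2, chr11:58214890-58214934, plus strand: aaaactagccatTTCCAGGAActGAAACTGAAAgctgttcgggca
Igtp, chr11:58199499-58199543, plus strand: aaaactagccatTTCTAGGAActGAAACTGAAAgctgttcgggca
Tgtp1, chr11:48992302-48992346, minus strand: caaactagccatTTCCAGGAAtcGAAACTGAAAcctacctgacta
Tgtp2, chr11:49064261-49064305, minus strand: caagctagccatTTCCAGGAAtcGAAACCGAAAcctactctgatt
Gm12250, chr11:58183740-58183818, plus strand: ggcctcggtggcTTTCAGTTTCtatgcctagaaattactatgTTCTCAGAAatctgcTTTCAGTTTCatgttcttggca

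The Irgm2, Igtp, Tgtp1 and Tgtp2 windows had the same layout, a GAS match followed after 2 bases by an ISRE match. The Irgm2 and Igtp windows were identical at 44 of 45 bases, the Tgtp1 and Tgtp2 windows at 37 of 45, and the windows of the regulators Irgm2 and Igtp matched those of the effectors Tgtp1 and Tgtp2 at 32 to 34 of 45. Gm12250 had a GAS match between a pair of ISRE matches on the opposite strand, with 6 bases between the GAS match and the nearer of them. Irgm1 had 2 overlapping ISRE matches and no GAS match, in a stretch that the GENCODE vM21 annotation (GRCm38) places in an Irgm1 exon, whereas the Irgm2 and Tgtp1 windows lay within the annotated span of their own genes but outside their exons, and the Igtp, Tgtp2 and Gm12250 windows lay outside theirs. Neither motif was found in the Ifi47 window, and Iigp1 had no entry. In all, 6 of the 7 windows held an ISRE match, 5 a GAS match and 5 both, against 3.44%, 8.30% and 0.454% of 32851 promoters of the same length. A match is a description of letters and not a measured binding site.

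**Figure D1:**
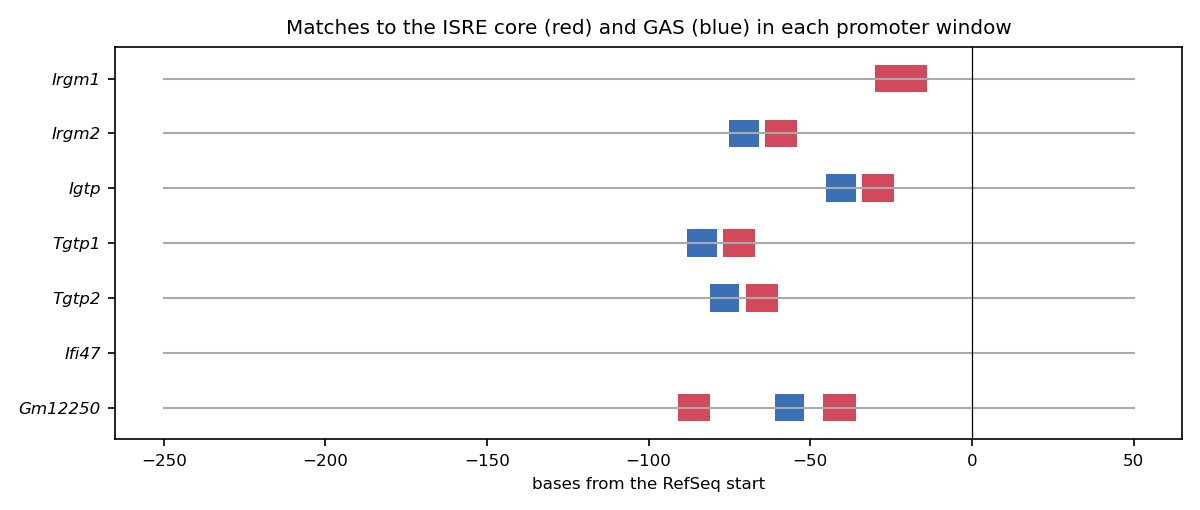
Position of the ISRE and GAS motif matches in the promoter windows of the 7 members with an entry, as bases from the annotated start (x axis, negative before the start). In Irgm2, Igtp, Tgtp1 and Tgtp2 a GAS match lies 2 bases upstream of an ISRE match, and Ifi47 has no match.

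The genes lie in 3 places of the genome (GRCm38). On chromosome 11, Irgm1 (48861968 to 48871683, minus strand), Tgtp1 (48985327 to 48994172, minus), Tgtp2 (49057194 to 49064206, minus) and Ifi47 (49076587 to 49096974, plus) form a cluster. Gm12250 (58187739 to 58189012), Igtp (58199556 to 58207591) and Irgm2 (58199618 to 58222782), all on the plus strand, form another on that chromosome, and Iigp1 lies on chromosome 18 (60376027 to 60392634, plus). Several members share sequence or exons, which limits how far their reads can be told apart. Of the 50-base windows in the exons of Tgtp1, 79.4% also occurred in Tgtp2, and 85.8% of those of Tgtp2 occurred in Tgtp1. For Igtp, 8.01% of exon bases overlapped exons of Irgm2, and 4.39% of Irgm2 exon bases overlapped those of Igtp. For Tgtp1, 6.96% of exon bases overlapped the related gene Gm12185. For Ifi47, 4.49% overlapped Olfr56 on the same strand and 4.29% overlapped Gm12188 on the opposite strand, and the strand setting of the counting is not given in the sources used here. Gm12250 had no shared windows and is annotated in vM21 as a processed pseudogene.

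The family was low in NPCs and in ESCs. Irgm1, a regulator needed for resistance to intracellular bacteria, had normalized counts of 50.6 and 50.95 in the NPC libraries and 34.4 and 19.98 in the ESC libraries. Irgm2, a regulator found at the Golgi apparatus, went the other way, with 7.78 and 4.39 in NPCs and 38.3 and 51.4 in ESCs. Igtp, a regulator found on the endoplasmic reticulum and lipid droplets, had 5.83 and 6.15 in NPCs and 14.7 and 20.9 in ESCs. None of these 3 regulators had overlapping libraries, and all 3 passed the test (limma on log2 of normalized count plus 1, adjusted p under 0.1 over all genes tested), Irgm1 lower in ESCs by a log2 difference of -0.93 (SE 0.33, adjusted p = 0.0389), Irgm2 higher by 2.72 (SE 0.36, adjusted p = 0.000667) and Igtp higher by 1.41 (SE 0.32, adjusted p = 0.00676). In that comparison 42.2% of all genes were called higher and 43.4% lower in ESCs, so 3 calls among the 4 members tested are no more than the share over all genes. Irgm2 and Igtp, with NPC means of 6.09 and 5.99, passed the filter on low values (a mean above 10) only through the ESC libraries. Both therefore had to differ. The call for Irgm1 was lost without ESC replicate 2 (-0.55, adjusted p = 0.152), without NPC replicate 1 or 2 (adjusted p = 0.159 and 0.154) and by DESeq2 (adjusted p = 0.155), and that for Igtp by DESeq2 (adjusted p = 0.128), and 1 member was called without ESC replicate 2.

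The effectors were near the limit of detection in both stem cell types. Ifi47 was at 0 in both ESC libraries and at 0 and 0.878 in NPCs, and Tgtp2 was at 1.97 and 0 in ESCs and at 0 in both NPC libraries. Tgtp1 was at 1.97 and 0.952 in ESCs and at 0 in both NPC libraries. Iigp1 had 0 and 0.952 in ESCs and 2.92 and 11.4 in NPCs. Gm12250 was the exception among the effectors, with 10.8 and 13.3 in ESCs and 14.6 and 33.4 in NPCs, a difference of -0.83 that did not pass the test (SE 0.44, adjusted p = 0.126). On the level per kb of annotated exon, with 1274 bases for Gm12250, that gene stood highest of the 8 in NPCs at 18.8 (SD 10.4), above Irgm1 at 8.74 and Igtp at 2.96. This place depends on the length used, which is that of a pseudogene annotation. In ESCs, Irgm2 at 12.2, Gm12250 at 9.47 and Igtp at 8.82 per kb could not be ordered, because neighbouring genes' libraries overlapped.

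**Figure D2:**
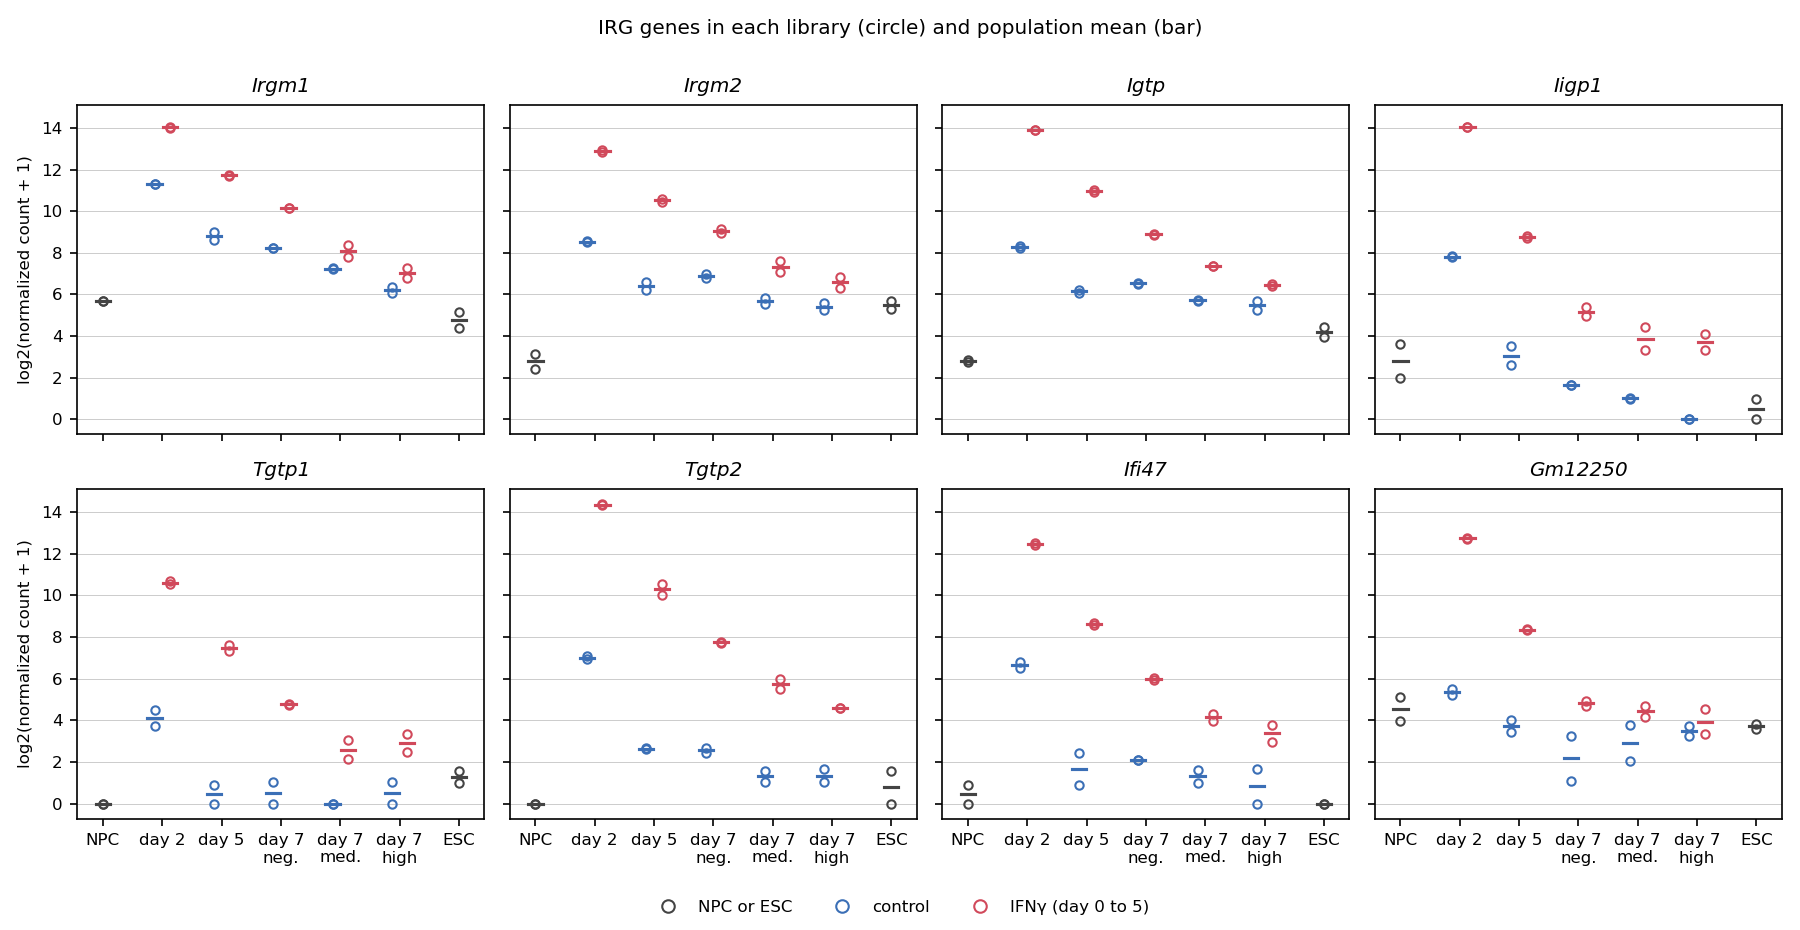
Normalized counts of the 8 members in every library (circles, y axis as log2 of normalized count plus 1) with population means as bars over the 12 populations (x axis), control and IFNγ arms in separate colours. The day 2 IFNγ libraries are the highest for every member, and the effectors other than Gm12250 sit near 0 in ESCs and NPCs.

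In untreated cells the members were far higher at day 2 of reprogramming than in NPCs. Irgm1 had 2524 and 2572 in the day 2 control libraries, a log2 difference from NPCs of 5.62 (SE 0.12, adjusted p = 2.60e-05). Irgm2 had 373 and 369 there and Igtp 303 and 318. Among the effectors, Iigp1 had 223 and 226, Tgtp2 120.2 and 133, Ifi47 111 and 89.3, and Tgtp1 12.2 and 21.8. The day 2 libraries of these 7 members lay above both NPC libraries. Of the 7 members tested 6 were higher, against 31.6% of all genes, but 5 of them passed the filter on low values (a mean above 10) only through the day 2 libraries and so had to differ. Leaving out NPC replicate 1 or 2 moved the log2 difference of Iigp1 from 5.02 to 4.18 or 5.85. Gm12250 is the member that did not pass the test, with 35.6 and 44.7 at day 2 against 14.6 and 33.4 in NPCs (log2 difference 0.82, SE 0.44, adjusted p = 0.148).

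The same libraries differed in feeder markers. The 4 Y-linked genes, all above 0 at day 2, summed to 218 and 253 in the day 2 control libraries against at most 1.94 in NPCs, where 3 or 4 of the 4 were at 0. The 7 fibroblast genes, such as those for collagens, summed to between 40837 and 60570 at day 2 and between 28358 and 40587 in NPCs, so they do not mark feeders alone. Of the 7, 4 were called higher at day 2 than in NPCs, beside 31.6% of all genes, and 2 lower. The part of feeder RNA in the day 2 levels of the IRG genes was not tested. By day 5 the Y-linked genes, the fibroblast genes and the family were all lower in control cells. Irgm1 had 388 and 509 in day 5 controls, a log2 difference from day 2 of -2.52, Irgm2 had 72.4 and 96.8 (-2.13), and Igtp had 67.3 and 72.8 (-2.13). Iigp1 had 5.05 and 10.7 (-4.75), Tgtp2 5.05 and 5.33 (-4.36), Ifi47 0.842 and 4.44 (-4.99), and Gm12250 15.1 and 9.77 (-1.63). All 7 members tested were lower, against 35.6% of all genes, and 3 of them, Iigp1, Tgtp2 and Ifi47, passed the filter only through day 2. The value of Ifi47 was -4.21 without day 5 control replicate 1 and -5.77 without replicate 2. In the sorted day 7 controls the regulators were lower in X-GFP high than in negative cells. Irgm1 had 299.5 and 295 in X-GFP negative, 153 and 147 in medium, and 81.5 and 66.2 in high cells. Irgm2 had 109.7 and 126 in negative, 45.5 and 56.8 in medium, and 37.1 and 47.0 in high cells, and Igtp had 94.4 and 89.1, 50.4 and 52.7, and 37.1 and 51.2. The libraries of Irgm2 and of Igtp overlapped between medium and high cells, and medium cells were not tested against the others. The log2 difference of high from negative cells was -2.003 for Irgm1, -1.47 for Irgm2 and -1.05 for Igtp, so that all 3 members tested were lower against 39.3% of all genes, and 5 of the 6 fibroblast genes tested were lower in the same comparison, whose part in these values was not tested.

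IFNγ raised all 8 members at day 2, in every case with both IFNγ libraries above both controls. The regulator Irgm1 had 17139 and 16271 with IFNγ, a ratio of means of 6.56 and a log2 difference of 2.71 (SE 0.05, adjusted p = 8.75e-07). Irgm2 had 7768 and 7342, a ratio of 20.4 (log2 difference 4.34, SE 0.06, adjusted p = 2.27e-07). Igtp had 15326 and 15337, a ratio of 49.4 (log2 difference 5.62, SE 0.06, adjusted p = 6.60e-08). The regulators thus differed among themselves in the size of the ratio.

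The effectors' ratios at day 2 ran from 56.3 to 169.8, and the counting intervals of the lowest of them, Ifi47 (49.0 to 65.2), and of the highest regulator, Igtp (45.6 to 53.5), overlapped. Iigp1, an effector that coats the vacuole of the parasite Toxoplasma gondii, had 16782 and 16864 with IFNγ, 74.9 times its control mean (log2 difference 6.22, SE 0.06, adjusted p = 6.60e-08). Tgtp2 had 20422 and 21625, 166 times its control mean (log2 difference 7.37, SE 0.07, adjusted p = 6.60e-08). Tgtp1 had 1498 and 1631, a ratio of 91.9 (log2 difference 6.49, SE 0.26, adjusted p = 3.59e-05). Both encode Irgb6, an effector that binds phospholipids of the vacuole membrane. Ifi47 had 5767 and 5514, a ratio of 56.3 (log2 difference 5.81, SE 0.12, adjusted p = 9.70e-07). Gm12250, whose product acts on bacteria that have reached the cytosol, had 6759.7 and 6876, a ratio of 169.8 (log2 difference 7.38, SE 0.12, adjusted p = 4.30e-07). All 8 members rose where 5.03% of the 15697 genes tested were called higher, and the members' median log2 difference was 6.01 against 0.01 over all genes tested. All 8 had means above 10 in both arms. In the same libraries the fibroblast genes summed to between 24554 and 29970 with IFNγ, below the controls, and 4 of the 7 tested were called lower. The Y-linked genes summed to between 125 and 223, with 0 of 4 called by limma, edgeR or DESeq2 and 1 of 4 at an unadjusted p under 0.05 by limma. The part of feeder RNA in the day 2 IFNγ differences was not tested. Of 6 immune cell markers 1 of the 4 tested was called, Cd74, the invariant chain of class II antigen presentation, which brought the immune sum to between 1565 and 2552.

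**Figure D3:**
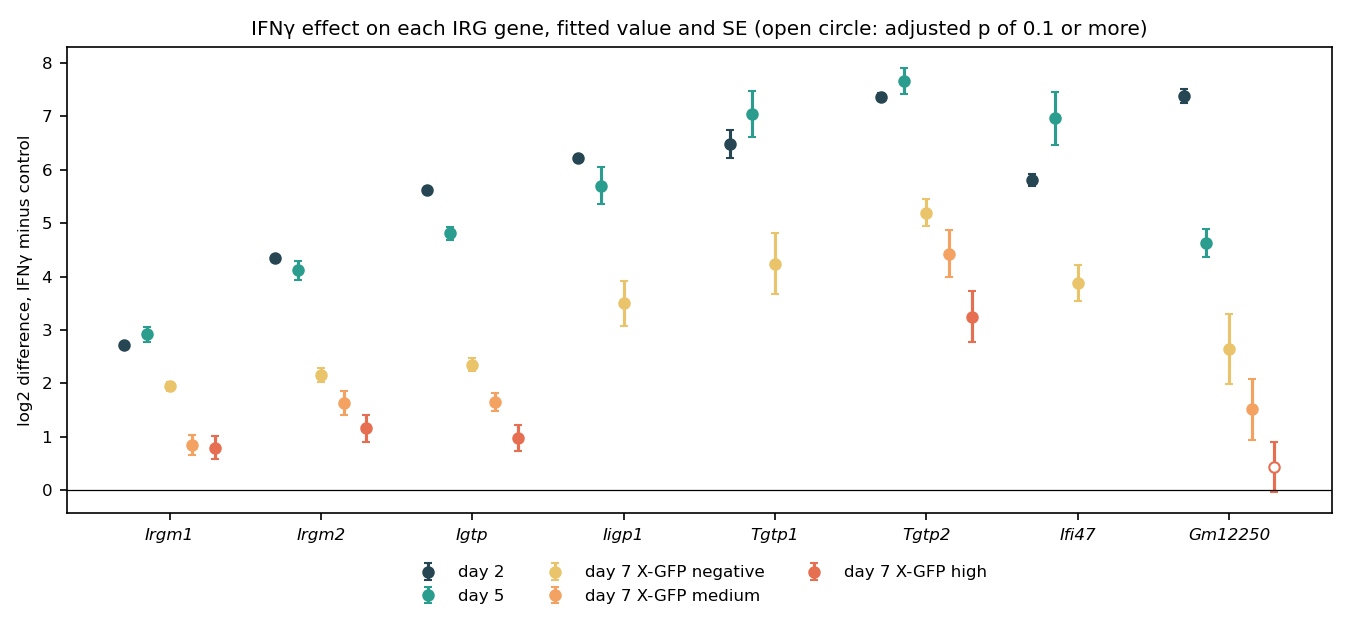
Log2 difference between IFNγ and control libraries (y axis, limma on log2 of normalized count plus 1) for each member tested (x axis), coloured by day 2, day 5 and the 3 day 7 populations, with bars of 1 SE and open symbols where the member did not pass the test. Differences at day 2 run from 2.71 for Irgm1 to 7.38 for Gm12250, and those at day 7 are smaller.

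IFNγ changed the order of the members on the level per kb of exon. In day 2 controls Irgm1 led at 439, followed by Igtp at 154 and Irgm2 at 101, so that the 3 regulators stood above every effector. Tgtp2 at 43.1 and Ifi47 at 40.5 overlapped, as did Ifi47 and Iigp1 at 38.6, and Gm12250 at 31.5 and Tgtp1 at 5.31 stood last. With IFNγ, Igtp led at 7582, with Tgtp2 at 7156 and Gm12250 at 5352 next. Iigp1 at 2889 and Irgm1 at 2875 overlapped, Ifi47 had 2281 and Irgm2 2047, and Tgtp1 was last at 488. Gm12250 thus moved from the 7th place to the 3rd, and Irgm1 from the 1st to a place it shared with Iigp1. These levels divide by all annotated exon bases, although 81.2% of the 50-base windows of Tgtp1 and 86.6% of those of Tgtp2 are shared with other genes. Gm12250 is counted on its pseudogene annotation of 1274 exon bases. The places of Tgtp1, Tgtp2 and Gm12250 therefore depend on the lengths used.

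**Figure D4:**
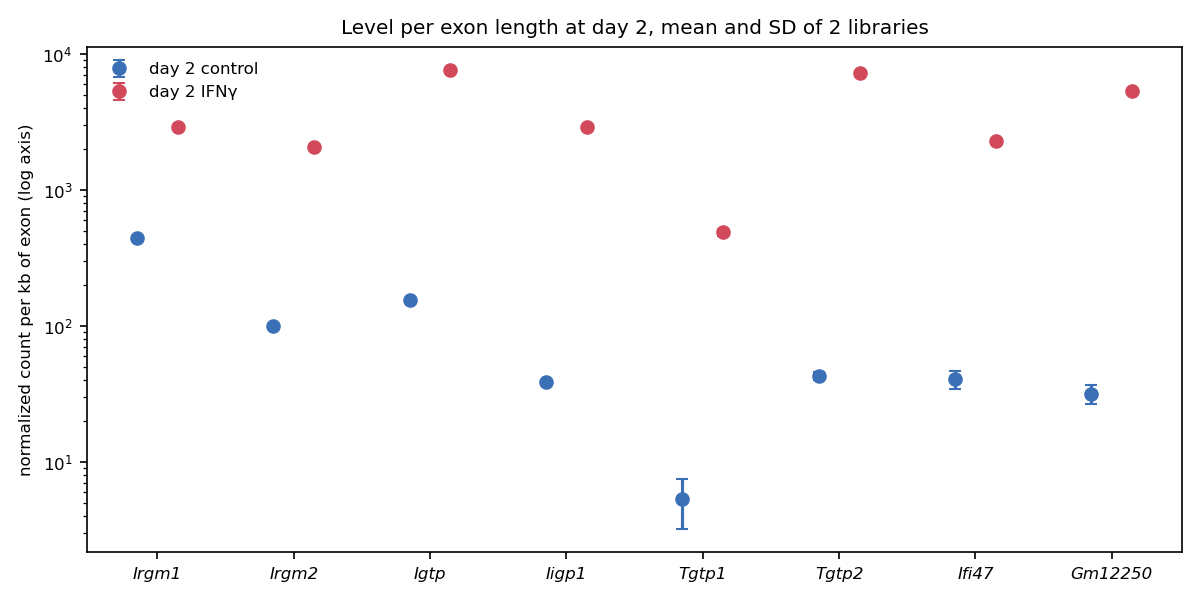
Normalized count per kb of exon of each member at day 2 (log axis), as the mean of 2 libraries with SD for the control and IFNγ arms, where SDs smaller than the symbol are hidden. In controls the regulators Irgm1, Igtp and Irgm2 stand above the effectors, and with IFNγ Igtp, Tgtp2 and Gm12250 lead. The places of Tgtp1, Tgtp2 and Gm12250 depend on the exon lengths used.

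Tgtp1 took a small share of the reads counted on the Tgtp1 and Tgtp2 pair. In the day 2 IFNγ libraries its share was 6.83% (95% exact interval 6.51 to 7.16) and 7.01% (6.69 to 7.35). At day 5 with IFNγ it was 11.6% (10.3 to 13.1) and 13.3% (11.7 to 15.1), above both day 2 shares and outside their intervals. In day 2 controls the shares of 9.23% (4.86 to 15.6) and 14.1% (9.05 to 20.6) had intervals too wide to be ordered against either, and the X-GFP negative shares with IFNγ were 10.6% and 11.3%. These intervals cover counting error only, and reads from the stretches that the genes share cannot be assigned to either gene, so the share is of the reads as counted.

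At day 5, after 5 days of IFNγ, all 8 members were still higher than in controls, at lower absolute levels than at day 2. Irgm1 had 3401 and 3325 with IFNγ, 7.50 times its control mean (log2 difference 2.92, SE 0.13, adjusted p = 0.000167). Irgm2 had 1554 and 1386, a ratio of 17.4 (log2 difference 4.12, SE 0.17, adjusted p = 0.000112). Igtp had 2042 and 1937, a ratio of 28.4 (log2 difference 4.81, SE 0.13, adjusted p = 1.60e-05). The regulators therefore kept the order of ratios they had at day 2. Among the effectors, Tgtp2 had 1492 and 1049 (log2 difference 7.66), Iigp1 422 and 454 (5.71), and Ifi47 404 and 386 (6.97). Gm12250 had 330.3 and 320.3, a ratio of 26.1 (log2 difference 4.63, SE 0.27, adjusted p = 0.000528). The value of Ifi47 was 6.18 without control replicate 1 and 7.75 without control replicate 2. Tgtp1 had 197 and 161 against a single control read, a ratio of 425 with a counting interval from 73.6 to 16327. At day 5, 1.65% of all genes were called higher and 0.535% lower. Of the 8 members 4, Iigp1, Tgtp1, Tgtp2 and Ifi47, passed the filter only through the IFNγ libraries and so had to differ, and the fitted values of those with few control reads depend on the added 1. The fibroblast sums at day 5 were 854 and 1394 with IFNγ and 1673 and 2513 in controls, and 0 of 6 fibroblast genes were called by limma and edgeR, 2 by DESeq2 and 5 at an unadjusted p under 0.05 by limma.

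The IFNγ effect at day 5 differed from that at day 2 in 2 members. The log2 effect of IFNγ on Gm12250 was smaller at day 5 by -2.75 (SE 0.29, adjusted p = 0.0050) and that on Igtp by -0.81 (SE 0.11, adjusted p = 0.0174), where 0.474% of all genes had a lower effect. Both calls depend on the fit. With all 24 libraries in 1 fit the adjusted p was 0.161 for Gm12250 and 0.104 for Igtp, and Igtp was also lost without either day 2 IFNγ library (adjusted p = 0.176 and 0.173). The other 6 did not pass the test. Among them Ifi47 (1.16, adjusted p = 0.565) was called with a larger effect at day 5 when day 5 control replicate 2 was left out (1.94, adjusted p = 0.0153), and Iigp1 with a smaller one when day 5 control replicate 1 was left out (-0.99, adjusted p = 0.0371).

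From day 5 to the X-GFP negative cells of day 7, which had been without added IFNγ since day 5, the IFNγ arm lost most of its IRG transcripts. Irgm1 had 1143 and 1156 in the IFNγ libraries of X-GFP negative cells, a log2 difference from day 5 of -1.55, Irgm2 had 497 and 561 (-1.47), and Igtp had 480.0 and 466 (-2.07). The effectors differed more, with Tgtp2 at 217 and 209.8 (-2.55), Ifi47 at 60.1 and 63.3 (-2.66), Tgtp1 at 25.8 and 26.7 (-2.72), Gm12250 at 24.7 and 29.7 (-3.54), and Iigp1 at 30.1 and 40.6 (-3.61). All 8 were lower, with adjusted p from 8.02e-05 to 0.000564 by limma, where 24.2% of all genes were called lower, and no day 7 library overlapped those of day 5. The comparison sets an SSEA1-sorted population against a part of a later one, so time, removal of IFNγ and X-GFP gate cannot be told apart in it.

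Relative to their mean at day 2 with IFNγ, the members kept unequal shares of their level. The counting intervals of Igtp and Tgtp1 overlapped at day 5, as did those of Irgm1 and Irgm2, so no order is given within either pair. These intervals cover counting error only. The day 5 IFNγ libraries of Tgtp2 lay further apart, at 1492 and 1049, so Tgtp2 and Ifi47 are not ordered either. At that day Irgm1 kept 20.1%, Irgm2 19.5% and Igtp 12.98%, while Tgtp1 kept 11.4%, Ifi47 7.00%, Tgtp2 6.04%, Gm12250 4.77% and Iigp1 2.60%. In X-GFP negative cells Irgm2 stood at 7.00% and Irgm1 at 6.88%, again with overlapping intervals, against 0.399% for Gm12250 and 0.210% for Iigp1. In X-GFP high cells the 8 members were between 0.0753% for Iigp1 and 1.27% for Irgm2. The transcription factor gene Irf1 stood at 61.5%, 39.5% and 14.8% at these steps. Its control means were 375 at day 2, 1295 at day 5, 1383 in X-GFP negative and 919 in high cells, so its shares include expression without IFNγ. The ratio of its IFNγ mean to its control mean was 20.6 at day 2, 3.66 at day 5, 2.21 in X-GFP negative and 1.25 in high cells.

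**Figure D5:**
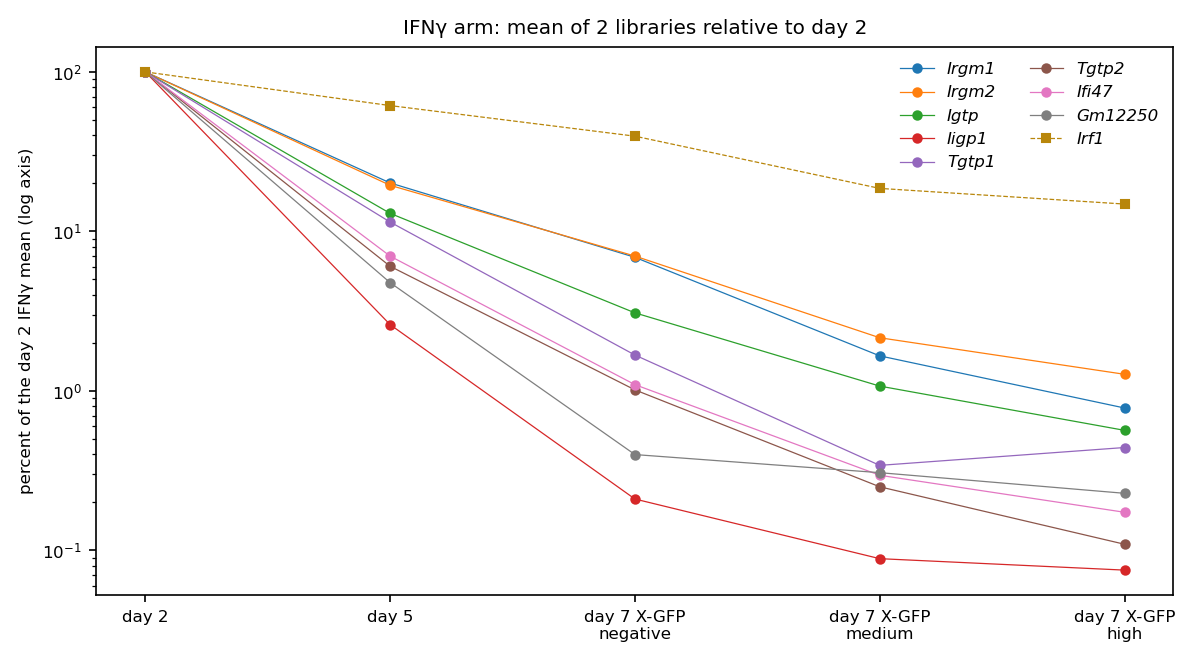
Mean of each member in the IFNγ arm as a percent of its mean at day 2 with IFNγ (y axis, log scale) at day 2, day 5 and in the day 7 X-GFP negative, medium and high cells (x axis), with Irf1 for comparison. Irgm1 and Irgm2 are the highest members at day 5, and Irf1 stays above all 8 members in this percent, which includes its expression without IFNγ.

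Even so, in X-GFP negative cells every member was still higher in the IFNγ arm than in its control at day 7. The ratio of means was 3.87 for Irgm1 (1143 and 1156 against 299.5 and 295), 4.50 for Irgm2 (controls 109.7 and 126) and 5.16 for Igtp (controls 94.4 and 89.1). Their log2 differences were 1.95, 2.16 and 2.35, with adjusted p from 1.04e-06 to 3.66e-06 by limma. The effectors other than Gm12250 had larger ratios on few control reads. Tgtp2, at 4.39 and 5.36 in controls, had a ratio of 43.8, Ifi47, at 3.29 and 3.22, 19.0 (counting interval 8.47 to 52.8), and Iigp1, at 2.19 and 2.15, 16.3 (6.12 to 61.8). Tgtp1 had 1 control read and a ratio of 48.9 (8.31 to 1950). Gm12250, at 1.10 and 8.58 in controls, had a ratio of 5.62 (2.73 to 12.9), an interval that contained those of the regulators. The fitted log2 difference of Gm12250, 2.65, was 1.55 without control replicate 1 and 3.74 without control replicate 2. All 8 passed the test where 31.1% of all genes were called higher, and 5 of them, all effectors, passed the filter only through the IFNγ libraries. On the scale per kb the regulators again led in the IFNγ arm, Igtp at 234, Irgm1 at 198 and Irgm2 at 143, ahead of Tgtp2 at 72.6. The length used for Tgtp2 includes the stretches it shares with Tgtp1. Other markers moved in these libraries too. The fibroblast sums were 722 and 793 with IFNγ and 4314 and 4933 in controls, with 1 of 6 genes called lower, and of 5 pluripotency genes 4 were called higher and 1 lower. Of 3 immune cell markers tested 1 was called higher and 2 lower. The part of these differences in the IRG ratios was not tested.

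The IFNγ effect was smaller in X-GFP negative cells than at day 5 for the regulators Irgm1 (-0.97, adjusted p = 0.00337), Irgm2 (-1.95, adjusted p = 0.000820) and Igtp (-2.45, adjusted p = 0.000181) when the difference itself was tested. In this test 22.5% of all genes had a lower effect. Tgtp2 (-2.47, adjusted p = 0.00126), Ifi47 (-3.08, adjusted p = 0.00695), Iigp1 (-2.20, adjusted p = 0.0104) and Tgtp1 (-2.80, adjusted p = 0.0139) were called as well, but these 4 entered the test only through their IFNγ libraries. With control means between 0.421 and 7.85 at both stages, their values follow the IFNγ arm and depend on the added 1. Ifi47 was at -2.30 without day 5 control replicate 1 and at -3.87 without day 5 control replicate 2. Iigp1 was not called by edgeR or DESeq2 on the recovered reads (adjusted p = 0.131 and 0.134), nor was Tgtp1 (0.284 and 0.292), which was also lost with a pseudocount of 0.1 (0.233). Gm12250 was at the threshold (-1.98, adjusted p = 0.0974) and was called under 6 of 15 alternatives. It was lost with a pseudocount of 0.1 (adjusted p = 0.257), with no filter (0.175), after rescaling (0.107), and without day 5 control replicate 2 (0.225), either day 5 IFNγ library (0.152 and 0.160), X-GFP negative control replicate 2 (-0.89, 0.205) or either X-GFP negative IFNγ library (0.204 and 0.170), and its value was -3.08 without X-GFP negative control replicate 1.

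In X-GFP medium cells the members were higher in the IFNγ arm by smaller amounts. Irgm1 had 222 and 332 against 153 and 147 in controls (log2 difference 0.85, SE 0.18, adjusted p = 0.00298). Irgm2 had 132 and 193 against 45.5 and 56.8 (1.63, SE 0.23, adjusted p = 0.000191). Igtp had 165 and 164 against 50.4 and 52.7 (1.65, SE 0.18, adjusted p = 3.51e-05). Tgtp2 had the largest difference of the members tested, with 43.7 and 61.7 against 1.98 and 1.03 (4.43, SE 0.44, adjusted p = 2.18e-05), which is a ratio of 35.0 with a counting interval from 11.6 to 173. Gm12250, at 16.8 and 25.1 against 12.8 and 3.10, passed at 1.52 (SE 0.57, adjusted p = 0.0435), but without X-GFP medium control replicate 2 the difference was 0.64 (adjusted p = 0.324) and without replicate 1 it was 2.39. Iigp1, Ifi47 and Tgtp1 were below the filter. Iigp1 had 8.96 and 20.9 against 2 control reads, a ratio of 14.8 (3.78 to 130), Ifi47 14.6 and 18.8 against 3 control reads, a ratio of 10.9 (3.45 to 56.6), and Tgtp1 3.36 and 7.32 against 0 reads, at least 1.76-fold higher when the control is set to 3 reads per library. All 5 members tested were called higher, where 33.3% of all genes were, and 2 of them, Tgtp2 and Gm12250, passed the filter only through the IFNγ libraries. In these libraries the fibroblast sums were 410 and 536 with IFNγ and 4893 and 5503 in controls. Of the 6 fibroblast genes tested 4 were called lower and 1 higher, beside 29.6% and 33.3% of all genes.

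X-GFP high cells, the sorted population with the highest Nanog, had the smallest differences. Irgm1 had 109 and 153 against 81.5 and 66.2 (log2 difference 0.80, SE 0.22, adjusted p = 0.0169). Irgm2 had 78.8 and 113 against 37.1 and 47.0 (1.16, SE 0.25, adjusted p = 0.00493). Igtp had 84.5 and 89.0 against 37.1 and 51.2 (0.98, SE 0.24, adjusted p = 0.00951). Even here the regulators' libraries did not overlap between the arms, although Irgm1 without high control replicate 2 (adjusted p = 0.111) and Igtp without high control replicate 1 (adjusted p = 0.116) were not called. Tgtp2 had 22.8 and 23.1 against 1.03 and 2.13 (3.25, SE 0.48, adjusted p = 0.000409), a ratio of 14.5 (counting interval 4.65 to 73.8). Gm12250 was the only member in any of the 5 IFNγ comparisons whose libraries overlapped, with 9.14 and 22.0 against 12.4 and 8.54 (0.43, SE 0.47, adjusted p = 0.520), and its difference was -0.16 without IFNγ replicate 2. Of the members below the filter, Iigp1 had 9.14 and 16.2 against 0 in both controls, at least 4.02-fold higher at the floor of 3 reads, Ifi47 had 6.85 and 12.7 against 0 and 2.13, a ratio of 9.17 (2.21 to 83.1), and Tgtp1 4.57 and 9.25 against 0 and 1.07, a ratio of 12.9 (1.94 to 562). Of the 5 tested 4 were called higher, where 18.1% of all genes were, with Tgtp2 passing the filter only through the IFNγ libraries. In these libraries the fibroblast genes summed to 406 and 545 with IFNγ and 1946 and 2419 in controls. Of the 5 fibroblast genes tested, however, 1 was called higher and 1 lower, beside 18.1% and 20.4% of all genes. Their median log2 difference was 0.51, so the sums do not describe the list as a whole. The neural precursor genes summed to 711 and 747 against 1569 and 1631, and the immune cell markers to 554 and 755 against 1159 and 1304. The part of all these markers in the IRG differences was not tested. All 8 members were higher in replicate 2 than in replicate 1 of the high IFNγ libraries, and 7 of 8 were in the medium IFNγ libraries.

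Between the sorted day 7 populations the IFNγ effect was smaller in X-GFP medium than in negative cells for Irgm1 (-1.09, adjusted p = 0.0145) and Igtp (-0.70, adjusted p = 0.0405), 2 of the 7 members tested, where 8.36% of all genes had a lower effect. The estimates of the other 5, Irgm2, Iigp1, Tgtp2, Ifi47 and Gm12250, were also negative without passing. All of these but Irgm2 entered the test only through their IFNγ libraries. With control means between 1.01 and 7.97 in both populations, their values depend on the added 1, and their signs are no separate evidence. The call for Igtp was lost when any of 5 libraries was left out, with adjusted p from 0.102 to 0.131. Between X-GFP high and medium cells 0 of the 5 members tested passed by limma, edgeR or DESeq2, and 1 did at an unadjusted p under 0.05 by limma, where 8.06% of all genes had a lower effect.

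Other IRG-related genes rose with the members at day 2. This list of 8 holds genes of the same protein family that are less studied. Of these, 7 were tested and 6 called higher at day 2, beside 5.03% of all genes, with a median log2 difference of 4.33. They were led by Gm4951 (6.63), Gm4841 (5.87) and F830016B08Rik (4.42). Gm4841, with means of 7.06 in day 2 controls and 459 with IFNγ, passed the filter only through the IFNγ libraries and so had to differ. At day 5, 4 of 5 tested were called higher by limma and 2 by DESeq2, beside 1.65% of all genes. These 4 had control means between 0.865 and 1.73 and passed the filter only through the IFNγ libraries, so that they had to differ. Gm4951 averaged 206 with IFNγ against 1.73 there, and Gm4841 28.6 against 0.888. At day 7 only 1 or 2 of the list passed the filter. None of the list was called lower at day 2 or day 5. In X-GFP medium and in high cells Irgq, a relative outside the interferon response, was the single gene tested. It was called lower in both, beside 29.6% and 20.4% of all genes.

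Among genes of the pathway from the IFNγ receptor to IRF1, 11 of 14 tested were higher at day 2 (5.03% of all genes), 8 of 13 at day 5 (1.65%), and 6 of 13 in X-GFP negative cells (31.1%), where 4 were lower (30.8%). The medians were 1.23, 0.77 and 0.10. In X-GFP medium cells 8 were higher and 4 lower of 14 (33.3% and 29.6% of all genes), and in high cells 3 were higher and 4 lower of 14 (18.1% and 20.4%), so that several of the day 7 counts are near the share over all genes. Ciita, the master regulator of class II antigen presentation, had the largest difference at day 2 (8.40, from near 0 in controls), followed by Irf8, an IRF1 relative (6.71), and Nlrc5, the activator of class I genes (6.08). Irf1 was higher by 4.37 at day 2, 1.88 at day 5, 1.14 in X-GFP negative, 0.67 in medium and 0.32 in high cells. In untreated cells from day 2 to day 5, where the 7 IRG members tested were lower, 10 of the 13 genes tested in this list were lower too, beside 35.6% of all genes. Irf1 was the 1 gene of the list called higher, by 1.79 on the log2 scale.

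The guanylate-binding proteins (GBPs), larger GTPases that act with the IRGs at vacuoles, were called higher in 8 of 8 at day 2 (median 6.04, beside 5.03% of all genes), led by Gbp2b (8.33), Gbp8 (7.42) and Gbp11 (6.98). At day 5 they were again 8 of 8 (median 3.23, beside 1.65%), and 6 of 6 in X-GFP negative cells (median 1.42, beside 31.1%). In X-GFP medium cells 5 were higher and 1 lower of 6 (33.3% and 29.6% of all genes), and in high cells 3 were higher and 1 lower of 6 (18.1% and 20.4%), where DESeq2 called 1. The IFNγ effect at day 5 was smaller than at day 2 in 7 of the 8 GBPs by limma, 6 by edgeR and 8 by DESeq2, beside 0.474% of all genes, and the difference from the IRG members was not tested. Gbp5, Gbp6 and Gbp10 were not analysed here.

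The ATG8 conjugation machinery, the autophagy proteins that direct IRGs and GBPs to vacuoles, gave no call while IFNγ was present. At day 2 and day 5, 0 of 11 genes passed the test by limma, edgeR or DESeq2 (1 and 2 at an unadjusted p under 0.05 by limma), with median log2 differences of 0.05 and 0.04. At day 7 the list was lower in 6 of 11 in X-GFP negative, 7 of 11 in medium (with 2 higher) and 4 of 11 in high cells, against 30.8%, 29.6% and 20.4% of all genes called lower, with medians of -0.27, -0.30 and -0.19. Of 5 ubiquitin ligases and adaptors of the vacuole, 1 was higher at day 2, Trim21 (1.20), a ubiquitin ligase that is itself interferon-inducible. It was at 0.48 at day 5 (adjusted p = 0.154) and higher by 0.61 in X-GFP negative cells, where the other 4 were lower.

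Over the 12 population means, the genes with profiles most like the members' mean profile were Gm4951 (Pearson r 0.987), Casp1 (0.975), Gm4841 (0.972), 9930111J21Rik1 (0.972), Gm12185 (0.971), Gm4070 (0.970), Tnfrsf14 (0.968) and BC023105 (0.966), among 13835 genes considered. These values describe 12 points that share their libraries. Of the 8, 3 belong to the list of other IRG-related genes, namely Gm4951, Gm4841 and 9930111J21Rik1, and Gm12185 shares exon bases with Tgtp1. Casp1, the protease of inflammasomes, averaged 3.53 in day 2 controls and 201 with IFNγ, and Tnfrsf14, a receptor of the tumour necrosis factor family, averaged 17.1 and 206.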

How the data were processed

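RNA-seq libraries of 24 samples, 2 for each of 12 populations, were analysed from 1 table of 37315 genes. The authors deposited normalized counts (a signal scaled by DESeq2 size factors), made per the labels and methods with STAR on mm10, HTSeq 0.6.1 and DESeq2, and the annotation release is not given in the sources used here. Low values stood at whole multiples of a step per library, so reads were recovered (100% whole within 0.01 of a step) and gave 24746109 to 37056508 reads on genes per library, with a median of 28332222.5. Counting intervals cover counting error only, and the floor was 3 reads per library. Samples were grouped by GEO's labels, and no column was left unmapped. A table of allele fractions was not used here. Symbols were matched for 95.0% of identifiers through GENCODE vM21.

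Comparisons used limma 3.58.1 (R 4.3.3), with an intensity trend, on log2 of normalized count plus 1 over the 2 groups compared (4 groups for a difference of effects), for genes with a mean above 10, two-sided, with Benjamini-Hochberg adjustment over all genes tested and a threshold of 0.1. Alternatives were a pseudocount of 0.1, no filter, rescaling to equal totals, a single fit of all 24 libraries, a block for the replicate number, edgeR 4.0.16 and DESeq2 1.42.0 on recovered reads, and leaving out each library. The code was tested on simulated data. All 8 members are named. From every other list the 3 genes with the largest absolute difference at day 2 among those called are named, with Irf1 (a further gene of this rule is not reported here), and the 8 genes of highest Pearson r to the members' mean standardized profile, among genes with a mean above 10 and a population mean of at least 100. Casp1 and Tnfrsf14 were singled out from these 8, and Irgq and the markers were named, after their values were seen. The members and lists were chosen with earlier results of these data known.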

Additional observations from a re-analysis of the deposited data

Results flagged for a closer look

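The effect of IFNγ differed between stages in 12 tests of a difference of log2 effects by limma, all toward a smaller effect at the later stage or higher X-GFP. From day 2 to day 5 it was smaller for Igtp (-0.81) and Gm12250 (-2.75). From day 5 to the X-GFP negative cells of day 7 it was called smaller for all 8 members, of which Gm12250 was called under 6 of 15 alternatives and Iigp1, Tgtp1, Tgtp2 and Ifi47 entered only through their IFNγ libraries. The values were those of the regulators Irgm1 (-0.97), Irgm2 (-1.95) and Igtp (-2.45) and the effectors Iigp1 (-2.20), Tgtp1 (-2.80), Tgtp2 (-2.47), Ifi47 (-3.08) and Gm12250 (-1.98). From X-GFP negative to X-GFP medium cells it was smaller for Irgm1 (-1.09) and Igtp (-0.70). With 2 libraries in each population, single libraries could not be screened for outlying values.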

How the results depend on the processing

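Of 1103 values of the members recomputed under the alternatives, 1054 kept their direction and their side of the threshold, 35 were no longer called, 10 became called and 4 reversed. The number of members called stayed at 8 under every alternative at day 2, at day 5 and from day 5 to X-GFP negative cells in the IFNγ arm. It ranged from 7 to 8 in X-GFP negative, 4 to 7 in medium and 3 to 6 in high cells. For ESCs against NPCs the 3 calls became 5 with no filter and 1 by DESeq2, and leaving out 1 library gave 1 to 3. For X-GFP high against negative controls the 3 calls became 5 with no filter. For the IFNγ effect at day 5 against day 2 the 2 calls became 0 with all 24 libraries in 1 fit. For the IFNγ effect in X-GFP medium against negative cells the 2 calls became 1 by DESeq2. Both counts also changed when single libraries were left out. The reversed values were the IFNγ difference of Gm12250 in X-GFP high cells and the change in the IFNγ effect on Irgm1 from X-GFP medium to high cells. The first was 0.43 with all libraries, -0.16 without IFNγ replicate 2 and 1.02 without IFNγ replicate 1. The second was -0.05 with all libraries, -0.34 without medium IFNγ replicate 1 and 0.24 without medium IFNγ replicate 2. It was 0.10 without high control replicate 1 and 0.19 without high IFNγ replicate 1. Gm12250 in X-GFP medium cells was not called with no filter (adjusted p = 0.115) or by DESeq2 (0.189), and Irgm1 in high cells was not with no filter (0.105). The causes were not tested. Leaving out 1 library left its group with a lone library, assumed to vary like the others.

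With the replicate number as a block (replicate block), 3 members were called for the IFNγ effect in X-GFP medium against negative cells. The added call was Irgm2 (adjusted p = 0.0850 by limma). Gm12250 was called for ESCs against NPCs (0.0877), with no other call changed. The labels share only the number, and the correlation of replicate differences between paired groups ran from -0.19 to 0.41. Rescaling to equal totals moved the median log2 difference of all genes from 0.02 to 0.17 in X-GFP negative cells, from -0.03 to -0.16 for ESCs against NPCs, from 0.00 to -0.13 for day 5 against day 2 controls, from -0.01 to 0.13 for the effect in X-GFP negative cells against day 5, and from 0.00 to -0.16 for that in medium against negative cells. Members with controls at 3 reads or fewer are limited by depth.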
